A study of Mus musculus with 61 samples.

Results

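The transcripts described here are 32 genes of cell division, chosen by symbol, and all 32 were among the 21169 genes of the deposited count table. They encode proteins that copy DNA, drive entry into mitosis, watch over chromosome attachment or build the spindle. They were measured by RNA sequencing of mouse adipose tissue, in 61 libraries from the 8 inbred strains that founded the Diversity Outbred (DO) stock. The NZO, B6, NOD, PWK and WSB strains had 8 libraries each, and the AJ, 129 and Cast strains had 7 each. All mice had been fed a diet high in fat and sugar, given as 45 percent fat, so no strain had libraries from another diet. NZO is known for polygenic obesity, Cast, PWK and WSB are wild-derived, and 129, AJ, B6, NOD and NZO are classical inbred strains. The labels give neither the fat depot nor the sex, the age or a batch, and they do not state that each library is a separate animal. The p-values therefore measure the spread between these libraries, whose total counts ran from about 19851600 in WSB to 61277600 in B6.

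A dividing cell first loads the MCM helicase onto replication origins, then copies its DNA with the sliding clamp PCNA and newly made nucleotides. Cyclin B and the kinase CDK1 then start mitosis, the spindle checkpoint holds the cell until every chromosome is attached, and the anaphase-promoting complex with CDC20 releases it. Most of these genes are transcribed in waves, with E2F factors serving the genes of DNA synthesis and the DREAM and MuvB complexes, with B-MYB and FOXM1, serving those of mitosis. In adipose tissue of obese mice, macrophages, progenitors and other stromal cells are known to divide, whereas mature fat cells rarely do. In bulk tissue, fewer dividing cells and less RNA per dividing cell cannot be told apart.

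Promoters of 5 members are shown as examples that hold different sets of the sequence motifs known from cell cycle promoters. They were picked with the strain results known. Each is the stretch of 150 bases before the annotated start, from RefSeq on GRCm38.p6, written 5′ to 3′ along the gene, and all 5 genes lie on the minus strand. The stretches are chr11:99024190-99024339 for Top2a, chr7:135716380-135716529 for Mki67, chr10:69352913-69353062 for Cdk1, chr1:128359706-128359855 for Mcm6 and chr5:30073626-30073775 for Tyms. Capitals mark the CCAAT box (CCAAT), the cell cycle homology region (TTTGAA or TTCGAA) and E2F motifs (TTTGGCGC, TTTCCCGC, TTTCGCGC or TTTGCCGC), each searched on both strands.
Top2a: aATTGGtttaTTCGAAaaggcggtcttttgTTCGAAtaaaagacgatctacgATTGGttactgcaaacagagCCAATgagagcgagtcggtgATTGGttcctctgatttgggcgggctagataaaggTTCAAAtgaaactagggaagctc
Mki67: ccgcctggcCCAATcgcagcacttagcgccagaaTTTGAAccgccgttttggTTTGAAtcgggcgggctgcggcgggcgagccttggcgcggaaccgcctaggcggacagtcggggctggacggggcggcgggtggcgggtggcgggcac
Cdk1: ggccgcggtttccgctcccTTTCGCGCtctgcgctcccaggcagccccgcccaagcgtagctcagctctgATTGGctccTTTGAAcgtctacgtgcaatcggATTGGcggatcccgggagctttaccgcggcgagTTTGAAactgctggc
Mcm6: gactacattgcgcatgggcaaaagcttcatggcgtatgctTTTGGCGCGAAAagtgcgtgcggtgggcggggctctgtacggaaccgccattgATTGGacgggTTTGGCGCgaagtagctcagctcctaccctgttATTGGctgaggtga
Tyms: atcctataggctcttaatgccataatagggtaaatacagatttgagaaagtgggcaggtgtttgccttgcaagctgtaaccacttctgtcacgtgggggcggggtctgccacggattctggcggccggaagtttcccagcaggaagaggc
The first 3 stretches hold CCAAT boxes and cell cycle homology regions, that of Cdk1 also an E2F motif. The Mcm6 stretch holds CCAAT boxes and E2F motifs, of which a pair overlaps on opposite strands, and the Tyms stretch holds none of the motifs.

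Across 300 bases, of which 250 lie before the start, 26 of the 32 members had a promoter in the RefSeq table. The CCAAT box was found in 22 of them, against 41.1% of all 27025 genes of the table. The cell cycle homology region was found in 15, against 21.7% of all genes. It was present in 13 of the 17 mitotic members and in 2 of the 9 members of DNA synthesis. An E2F motif was found in 5 members, against 2.6% of all genes, and 4 of the 5 belong to DNA synthesis. Birc5, Tk1, Nusap1 and Tyms held none of the motifs in this window. These matches are descriptions of letters, not of bound sites. The promoters of Kif20a, Mcm4, Aurkb, Foxm1, Tpx2 and Ccna2 were not used here.

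All 32 members passed the filter on low counts and all 32 differed among the 8 strains at an adjusted p under 0.05 (edgeR quasi-likelihood F-test, Benjamini-Hochberg adjustment over 18603 genes). This has to be read against a background of 89.9% of all genes tested. Strain accounted for between 49.8% (Mcm4) and 84.4% (Mcm6) of the variance in log2 CPM, with a median of 66.1%, against 48.7% for the median gene tested. NZO had the highest strain mean for 30 members, and Cast had it for Mcm7 and Tyms. B6 came second for 22 members, and Cast was lowest for 24. CPM are read counts scaled to a common library size, which was adjusted by the TMM method.

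The mean log2 CPM over the 32 members was 3.64 ± 0.41 in NZO libraries (SD, n = 8), where it ran between 3.04 and 4.29. It was 2.53 ± 0.54 in B6 libraries, 2.34 ± 0.40 in NOD libraries and 2.04 ± 0.63 in PWK libraries (SD, n = 8 each). It was 1.94 ± 0.35 in AJ, 1.83 ± 0.44 in 129 and 1.06 ± 0.42 in Cast libraries (SD, n = 7 each), and 1.83 ± 0.48 in WSB libraries (SD, n = 8). Of the libraries of other strains, only B6 replicate 6, at 3.26, reached into the NZO range. B6, NOD, PWK, AJ, 129 and WSB libraries overlapped one another widely. Cast libraries, between 0.476 and 1.69, lay below all NZO and NOD libraries and overlapped the low end of the remaining strains.

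**Figure D1:**
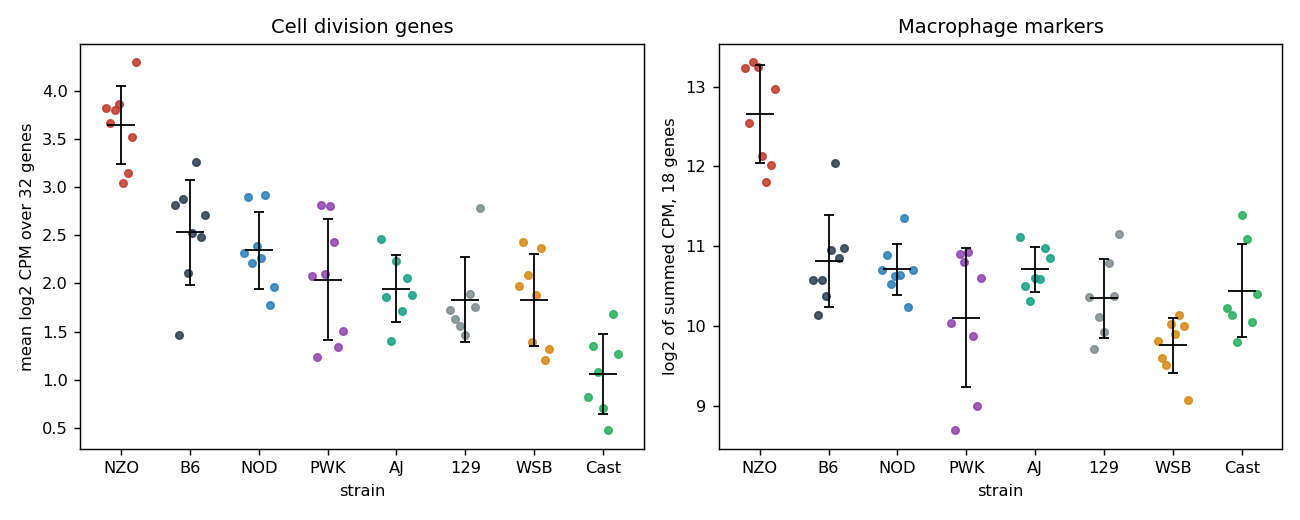
Mean log2 CPM over the 32 cell division genes (left) and log2 of the summed CPM of 18 macrophage markers (right) in each of the 61 libraries, by strain. Points are libraries, bars show the mean and SD of a strain. The NZO mean is the highest in both panels, B6 replicate 6 reaches into the NZO range in both, and Cast is lowest on the left (mean 1.06) but not on the right.

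In NZO adipose tissue all 32 members were higher than in the mean of the other 7 strains and none was lower, against a background of 27.2% of all genes higher and 26.6% lower. The median log2 fold change of the members was 1.76, against -0.02 for all genes tested, and the members ran from 0.29 (Mcm7) to 2.50 (Birc5). For every member all 8 NZO libraries lay above the median of the other libraries, but the share of all genes for which this holds was not computed. By role, the median was 1.26 for the 6 subunits of the licensing helicase and 1.42 for the 4 genes of the clamp and nucleotide supply. It was 1.88 for the mitotic cyclins with Cdk1 and Foxm1, 1.93 for mitotic kinases with Birc5, 1.83 for checkpoint and anaphase genes and 1.90 for spindle and chromosome genes.

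**Figure D2:**
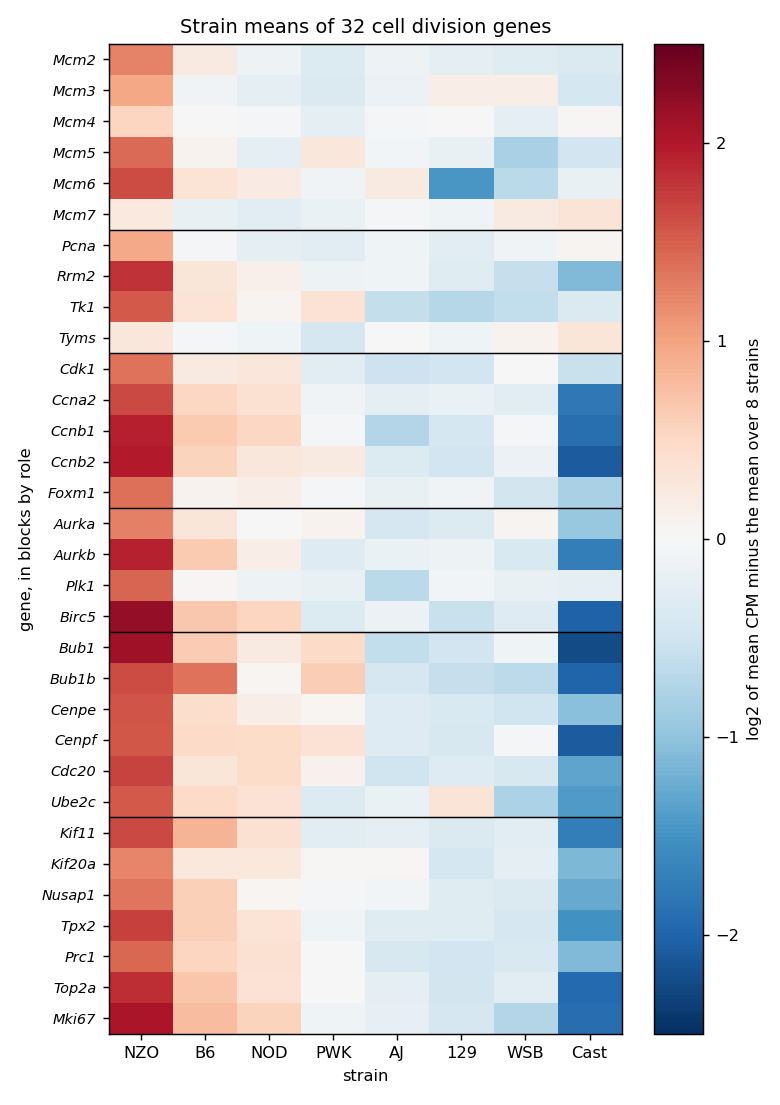
Strain means of the 32 genes, as log2 of the mean CPM minus the gene's mean over the 8 strains, with genes in blocks by role from DNA licensing at the top to the spindle at the bottom. The NZO column is high in nearly all genes. The Cast column is low in most genes of the mitotic blocks, but nearer the mean in the mitotic kinase gene Plk1 and in Mcm4, Mcm6, Mcm7, Pcna and Tyms.

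Among genes of DNA synthesis, Mcm6, a subunit of the replicative helicase (chromosome 1, 128331590 to 128359664, minus strand, GRCm38), separated NZO most cleanly. Mcm6 stood at 31.9, 46.7 and 53.7 CPM in NZO libraries (lowest, median and highest), and its strain mean was lowest in 129, at 5.22 CPM, and B6 came closest to NZO at 18.03 CPM. The highest library outside NZO had 28.5 CPM, so that every NZO library lay above every other library. Mcm6 was the only member for which this held, against 0.629% of all genes. Its log2 fold change was 1.86 ± 0.13 (SE, adjusted p = 1.68e-18, edgeR).

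Mcm5, another helicase subunit, had 14.5, 22.7 and 31.6 CPM in NZO libraries (lowest, median and highest), against strain means between 4.65 CPM in WSB and 9.91 CPM in PWK. NZO libraries overlapped only at the low end, since the highest other library had 15.8 CPM. Mcm5 rose by a log2 fold change of 1.61 ± 0.13, and the further subunits Mcm2 and Mcm3 by 1.42 ± 0.14 and 1.09 ± 0.10. Mcm4 rose less, with 24.1 ± 4.82 CPM in NZO against strain means of 14.3 to 16.9 CPM elsewhere, a log2 fold change of 0.61 ± 0.09. Mcm7 had 26.2 ± 4.66 CPM in NZO, against 27.3 ± 7.45 CPM in Cast and 25.7 ± 3.51 CPM in WSB, and the 3 strains overlapped. The 6 subunits form 1 ring, yet their log2 fold changes in NZO spanned 0.29 to 1.86. Mcm7 shares reads with other genes, its estimates being not whole in 78.7% of libraries, and its value is uncertain.

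Tk1, which salvages thymidine, had 7.65, 13.3 and 15.8 CPM in NZO libraries (lowest, median and highest), and strain means elsewhere between 2.58 CPM in 129 and 5.43 CPM in PWK. Its log2 fold change was 1.76 ± 0.14 (adjusted p = 3.81e-16, edgeR). Pcna, the sliding clamp, had 84.4 ± 21.5 CPM in NZO and strain means between 35.7 CPM in PWK and 46.0 CPM in Cast. The Pcna range in NZO, 56.2 to 111 CPM, met 87.6 CPM in Cast replicate 5 and 64.3 CPM in B6 replicate 6, and the log2 fold change was 1.09 ± 0.10. Rrm2, a subunit of ribonucleotide reductase, rose by 2.06 ± 0.20. Tyms, which makes thymidylate, had 9.53 ± 1.56 CPM in NZO, 9.56 ± 1.58 CPM in Cast and 8.30 ± 0.98 CPM in WSB, and a log2 fold change of 0.33 ± 0.07. Tyms estimates were not whole in 100% of libraries, so this gene shares reads. Per kilobase of merged exons, Pcna was the most abundant member in NZO at 35.2 CPM per kb, against 16.6 CPM per kb in the mean of the other 7 strains, and Mcm6 followed at 9.47 against 2.81 CPM per kb.

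Among the mitotic genes, Ccnb1, which encodes cyclin B1, had 4.44, 6.91 and 14.2 CPM in NZO libraries (lowest, median and highest). Its strain means elsewhere ran from 0.536 CPM in Cast to 3.11 CPM in B6, and the highest other library had 5.75 CPM. Ccnb1 rose by a log2 fold change of 2.22 ± 0.23 (adjusted p = 3.1e-12, edgeR). Ccna2, cyclin A2, which shares reads, rose by 1.88 ± 0.21 and Cdk1, the mitotic kinase itself, by 1.55 ± 0.18, and in both the lowest NZO libraries lay below the highest library of another strain. Foxm1, a transcription factor of mitotic genes, rose by 1.56 ± 0.16.

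Birc5, which encodes survivin of the chromosomal passenger complex, had the largest fold change of the members. It stood at 3.97, 7.59 and 12.2 CPM in NZO libraries (lowest, median and highest), against strain means of 0.403 CPM in Cast to 2.62 CPM in B6. Only the upper end of B6, at 4.37 CPM, overlapped NZO. Its log2 fold change was 2.50 ± 0.23 (adjusted p = 5.95e-14, edgeR). Aurkb, the kinase of the same complex, rose by 2.20 ± 0.23 and Aurka, the spindle pole kinase, by 1.43 ± 0.18.

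Bub1b encodes the checkpoint protein BUBR1. It had 5.44, 8.90 and 14.9 CPM in NZO libraries (lowest, median and highest), and 4.15, 7.35 and 11.0 CPM in B6 libraries. The 2 strains overlapped over most of their ranges. The next strain mean was 4.50 CPM in PWK, and Cast had the lowest at 0.725 CPM. Bub1b rose in NZO against the other 7 strains by a log2 fold change of 1.86 ± 0.19 and in B6 by 1.55 ± 0.20 (adjusted p = 9.41e-09, edgeR). Between NZO and B6 the log2 fold change was 0.27 ± 0.29 (adjusted p = 0.499). Cenpe and Cenpf, proteins of the kinetochore, rose in NZO by 1.80 ± 0.18 and 1.76 ± 0.27.

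Mki67, the proliferation marker that coats mitotic chromosomes, had 42.8, 61.8 and 135 CPM in NZO libraries (lowest, median and highest). Elsewhere its strain means ran from 4.34 CPM in Cast to 27.7 CPM in B6, and the highest other library, B6 replicate 6, had 45.5 CPM. The log2 fold change was 2.33 ± 0.23 (adjusted p = 6.47e-13, edgeR). Top2a, the topoisomerase that untangles sister DNA, had 24.2, 38.3 and 70.8 CPM in NZO, against strain means of 2.83 CPM in Cast to 17.6 CPM in B6. It rose by 2.12 ± 0.21. Kif20a, a motor of cytokinesis that shares reads, rose by 1.39 ± 0.20.

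**Figure D3:**
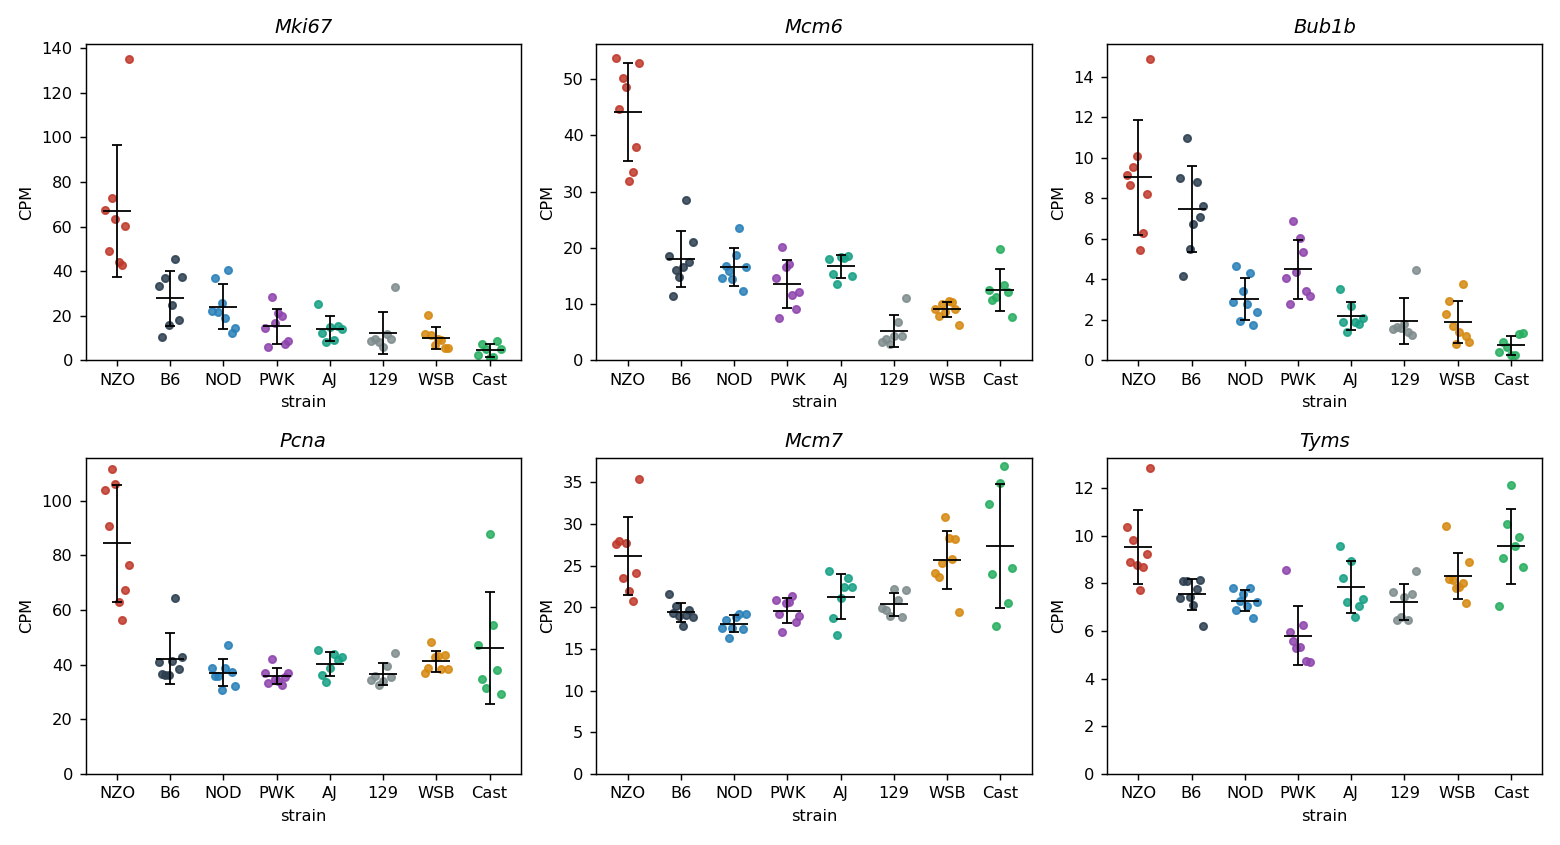
CPM in each library for 6 members, by strain, with the mean and SD of each strain. In Mcm6 all NZO libraries, from 31.9 CPM, lie above all others. In Bub1b the NZO and B6 points overlap, and in Mcm7 and Tyms those of NZO, WSB and Cast do.

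Set against each strain in turn, NZO was higher in 32 members against 129, AJ, NOD and PWK, with 21, 18.6, 19.9 and 26.7% of all genes higher in those pairs, in that order. It was higher in 31 members against B6 (background 18.7%), the exception being Bub1b. It was higher in 30 against Cast (29.3%) and 30 against WSB (28%), and in both pairs the exceptions were Tyms and Mcm7. In all, 29 members were higher in all 7 pairs, against 7.3% of all genes, though these pairs share the NZO libraries. The Mcm6 log2 fold change was 3.08 ± 0.22 against 129 and 1.29 ± 0.20 against B6. That of Mki67 was 3.95 ± 0.43 against Cast and 1.27 ± 0.36 against B6 (adjusted p = 0.00449, edgeR). For 24 members every NZO library lay above every WSB library, against 11.7% of all genes.

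In Cast adipose tissue 26 members were lower than in the mean of the other 7 strains (background 26.6%) and 2 were higher (29.6%), and the median log2 fold change was -1.28. The shift lay mostly in the mitotic genes. The median was -2.05 for the cyclins with Cdk1 and Foxm1, -1.96 for checkpoint and anaphase genes, -1.73 for spindle and chromosome genes and -1.52 for the kinases with Birc5. It was -0.32 for the helicase and -0.17 for the clamp and nucleotide supply, and the difference between these role groups was not tested. For 21 members all 7 Cast libraries lay below the median of the other libraries, and here too the share of all genes was not computed.

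Mki67 had 1.06, 4.91 and 8.36 CPM in Cast libraries (lowest, median and highest), and the lowest library elsewhere had 5.22 CPM. Most Cast libraries therefore lay below all others, and the log2 fold change was -2.19 ± 0.35 (adjusted p = 5.13e-07, edgeR). Top2a had 2.83 ± 1.67 CPM and Ccnb1 0.536 ± 0.43 CPM in Cast (SD, n = 7), with log2 fold changes of -2.21 ± 0.32 and -2.16 ± 0.35. The checkpoint kinase gene Bub1 was farthest down, at -2.56 ± 0.50, on counts of 0 to 22 per Cast library. Without Cast replicates 5 and 6, both at 0, Bub1 stood at -2.05, level with Ccnb2 (-2.05) and Cenpf (-2.04). In that fit Mki67 stood at -1.81 and Rrm2 at -0.98. Tyms and Mcm7, both of which share reads, were higher by 0.34 ± 0.08 and 0.36 ± 0.08, and without Cast replicates 5 and 6 Mcm7 stood at 0.17. Rrm2 was lower by -1.26 ± 0.29, the farthest down of the genes of DNA synthesis. Pcna (0.09 ± 0.11), Mcm4 (0.02 ± 0.09), Mcm6 (-0.22 ± 0.16) and Plk1 (-0.28 ± 0.24), a mitotic kinase gene, did not pass the test.

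**Figure D4:**
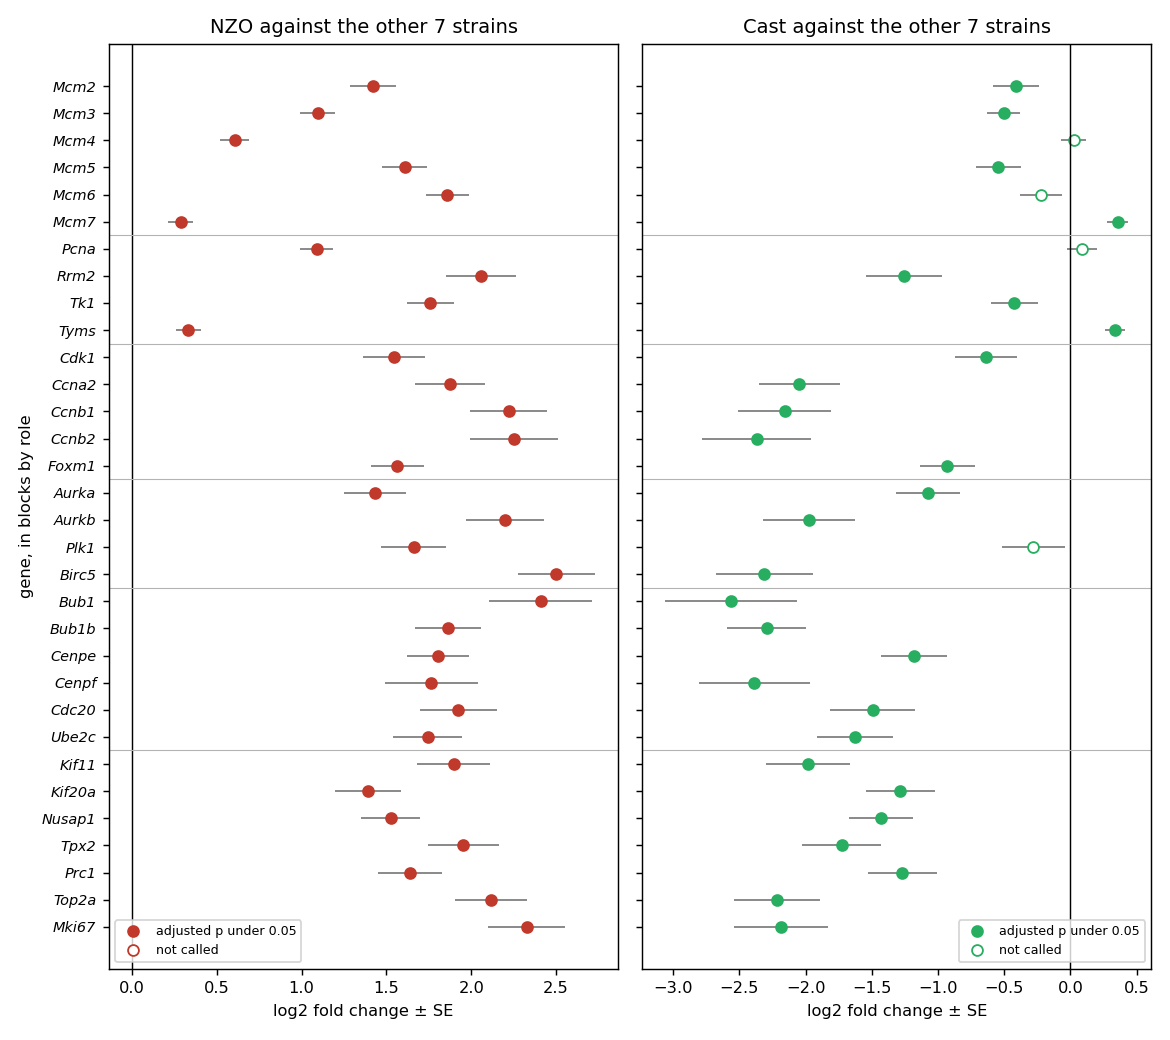
Log2 fold change ± SE of each member in NZO (left) and in Cast (right) against the mean of the other 7 strains, with filled points where the adjusted p is under 0.05. All points lie right of 0 in NZO, from 0.29 to 2.50, and in Cast all mitotic genes lie left of 0, from -2.56 (Bub1) to -0.28 (Plk1, open point), while those of DNA synthesis lie between -1.26 (Rrm2) and 0.36 (Mcm7).

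B6 was higher in 12 members (background 14.6%) and lower in Mcm7 (background 11.7%), with a median log2 fold change of 0.45. Of the 7 spindle and chromosome genes 6 rose, among them the motor Kif11 by 0.97 ± 0.23 and Mki67 by 0.87 ± 0.25, while Bub1b rose most. This count rests in part on B6 replicate 6, the highest B6 library for 24 members. Without it 4 members were higher, no larger a share than the 14.6% of all genes in the full fit. The share of all genes was not computed for the fit without it. NOD had no member higher and Mcm7 lower by -0.33 ± 0.08 (background 11.8%), with a median of 0.21.

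In 129, Mcm6 was lower by -1.66 ± 0.18 (adjusted p = 1.5e-10, edgeR) and Tk1 by -0.82 ± 0.18 (background 7.78%), with a median of -0.38 for the members. The share of members lower was near that of all genes. Mcm6 had 2.91, 4.37 and 11.1 CPM in 129 libraries (lowest, median and highest), and most of them lay below all libraries of other strains, the lowest of which had 6.30 CPM in WSB. The 129 replicate 9 library was the highest of its strain for 31 members. Without it 8 members were lower in 129, and the share of all genes was not computed for that fit. In AJ, Ccnb1, Plk1 and Tk1 were lower by -0.83 ± 0.31, -0.77 ± 0.25 and -0.68 ± 0.18 (background 9.59%). In AJ too, the share of members lower was near that of all genes.

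PWK was higher in Bub1b, by 0.71 ± 0.21, and in Tk1, by 0.40 ± 0.16 (background 24.6%). It was lower in 6 members (background 19%), a share near that of all genes, and all 6 are of DNA synthesis. These were Pcna, Tyms, Mcm2, Mcm3, Mcm4 and Mcm7, between -0.49 (Tyms) and -0.19 (Mcm7). WSB was lower in 10 members (background 23.7%), of which Mcm5 (-0.92 ± 0.16) and the ubiquitin-conjugating gene of anaphase Ube2c (-0.90 ± 0.25) were farthest down, and higher in Mcm7 by 0.26 ± 0.07 (background 25.6%). The 3 wild-derived strains together were lower than the 5 classical ones in 28 members (background 31.2%) and higher in Mcm7 (background 33.1%), with a median of -0.82. Mki67 was lower by -1.46 ± 0.20. With a macrophage marker sum as a covariate, 1 member was lower in WSB and 8 in the wild-derived strains, and the shares of all genes were not computed for these 2 counts. NZO is among the classical strains and Cast among the wild-derived ones. For every strain but NZO, the mean of the other 7 strains also includes NZO, which raises that reference for most members. Lower calls were not separated from this. The mean log2 CPM over the members was 1.83 in both WSB and 129 libraries and 1.94 in AJ libraries.

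The wider cell cycle machinery was read from 5 lists holding 139 further genes. In NZO 106 of them were higher and 14 lower, with a median log2 fold change of 0.83, against 27.2% of all genes higher and 26.6% lower. Of 31 genes of origin firing and the replication fork 29 were higher, led by the chromatin assembly gene Chaf1a (2.09 ± 0.16) and the licensing inhibitor Gmnn (1.95 ± 0.19), and Mcm8 was lower (-0.24 ± 0.11, adjusted p = 0.0474). Of 25 kinetochore and checkpoint genes 23 were higher, with Cenpi at 2.17 ± 0.22. Of 30 genes of condensin, spindle and cytokinesis 27 were higher, with the motor Kif15 at 2.37 ± 0.24 and the spindle protein Hmmr at 2.33 ± 0.26. None of these last lists held a gene that was lower.

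The lists of G1 control were mixed. Of 25 genes of G1 cyclins, their kinases, E2F factors and CDC25, 19 were higher, with E2f8 at 2.43 ± 0.27 and Mybl2, which encodes B-MYB, at 1.47 ± 0.17, whereas the D-type cyclins Ccnd2 (-0.41 ± 0.11) and Ccnd3 (-0.31 ± 0.07) were lower. Ccnd2 stood at 287 ± 63.8 CPM in NZO and 382 CPM in the mean of the other strains. Of 28 inhibitors, pocket proteins and repressor complex genes 8 were higher, a share near that of all genes, and 11 lower. Cdkn2b, which encodes the inhibitor p15, was higher by 1.11 ± 0.17 and Lin9 of the MuvB complex by 0.62 ± 0.10, while Cables1 (-0.92 ± 0.14) and the growth arrest gene Gas1 (-0.87 ± 0.18) were lower. In Cast, 83 of the 139 genes were lower and 20 higher, with 27 of 30 in the spindle list lower and 11 of 28 in the inhibitor list higher, against 26.6% of all genes lower and 29.6% higher.

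Markers of other cells also differed in NZO and Cast. Of all genes, 27.2% were higher and 26.6% lower in NZO, and 29.6% were higher and 26.6% lower in Cast. Of 18 macrophage markers 17 were higher in NZO, and their sum ran from 3587 to 10107 CPM in NZO libraries, against 415 to 4211 CPM elsewhere, where only B6 replicate 6 reached the NZO range. In NZO 15 of 16 T and NK cell markers and 8 of 10 B and plasma cell markers were higher, 10 of 10 mesothelial markers were lower and 9 of 12 adipocyte markers were lower. Of 12 adipose progenitor and fibroblast markers 5 were higher and 2 lower in NZO, with a sum of 4685 to 9969 CPM against 2064 to 7312 CPM elsewhere, and 1 was higher and 5 lower in Cast, with a sum of 2301 to 4357 CPM. Their part in the results was not tested. In Cast all 16 T and NK cell markers were lower, with a sum of 1.61 to 6.13 CPM against 5.61 to 84.1 CPM elsewhere, and 8 of 10 B and plasma cell markers were lower. Of the 18 macrophage markers 4 were higher and 4 lower in Cast, each a smaller share than that of all genes. NZO replicate 8 was the highest NZO library for 27 members and held 3530 CPM of neutrophil and marrow markers and 3596 CPM of B and plasma cell markers. In other NZO libraries these sums reached 34.7 and 765 CPM. Without NZO replicate 8 all 32 members remained higher in NZO. The 129 replicate 9, B6 replicate 6 and NOD replicate 6 libraries each had 1009 to 1280 CPM of genital duct markers, from the 2 of 10 such genes in the table, and the highest macrophage sum of their strain.

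With the log2 macrophage sum as a covariate, NZO was higher in 3 of the 32 members, a smaller share than the 14.3% of all genes. The median log2 fold change of the members was 0.46, against -0.001 for all genes tested. The 3 members were Mcm6 (0.57 ± 0.15, adjusted p = 0.0039), Tk1 (0.76 ± 0.24, adjusted p = 0.0134) and Birc5 (1.26 ± 0.46, adjusted p = 0.0329). Mcm4 and Mcm7 turned to -0.15 ± 0.11 and -0.10 ± 0.12, neither passing the test. The standard errors grew for most members, that of Mki67 being 0.46, against 0.23 in the model of strain alone, and the sum and the NZO strain are partly confounded. In Cast 23 of 32 members were still lower under the covariate (background 27.2%), with a median of -1.07. What part macrophages take in the NZO difference cannot be told apart from strain.

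**Figure D5:**
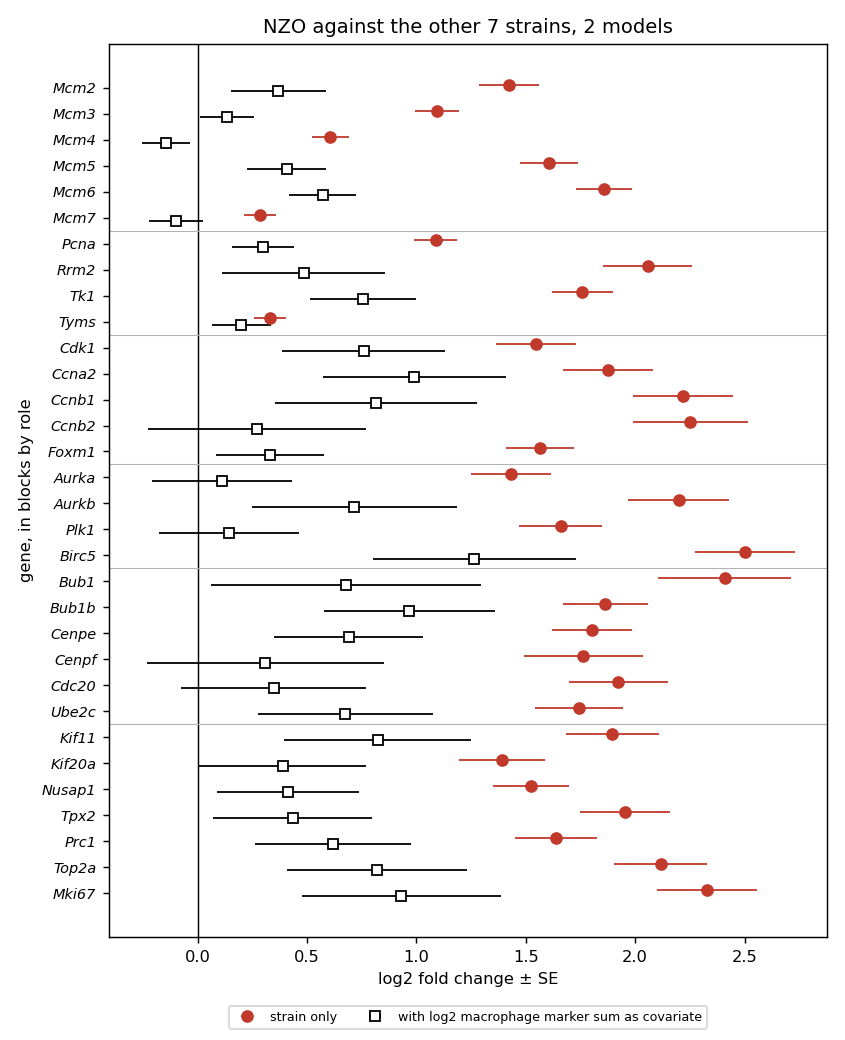
Log2 fold change ± SE of each member in NZO against the other 7 strains in a model of strain alone (circles) and in one that also holds the log2 macrophage marker sum (squares). Squares lie left of the circles with wider bars, and those of Mcm4 and Mcm7 fall below 0.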

How the data were processed

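Poly(A) RNA libraries were made with a spike-in mix, per the labels. The authors deposited expected counts for 21169 genes and log2 values made from them by a variance-stabilising transformation. GRCm38 and DESeq2 (no version) come from the submitters' processing notes, and the aligner and counter are not given in the sources used here. Of the expected counts 21.1% were not whole within 1e-06. A member is said to share reads where its estimates were not whole in over 50% of libraries, which holds for 5 members. Total counts per library ran from about 19851600 to 61277600.

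Counts were rounded, filtered by strain (18603 genes kept, 2566 set aside), scaled by TMM and fitted with 1 mean per strain by the quasi-likelihood test of edgeR 4.0.16 (R 4.3.3), 2-sided, and the threshold was 0.05 after Benjamini-Hochberg adjustment. Log2 CPM used a prior count of 2, and marker sums are CPM of the library total. On simulated data for NZO, with 100 of 18603 genes changed at each size, a log2 change of 1 was recovered for 60% of the altered genes and a change of 0.5 for 37%, and 3% of calls fell on unchanged genes. In the real data 27.2% of genes were called higher and 26.6% lower in NZO, far more than were changed in the simulation. The adjustment depends on that share, so the simulated rates need not hold for the reported test. No 2 libraries were identical (highest correlation 0.988).

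In each role group the members named in full are the 2 with the lowest and the 1 with the highest F-test p, and in each of the 5 pathway lists the 2 called genes that rose most in NZO and the 2 that fell most, given a mean of at least 1 CPM. Not every gene that met this rule is reported here. Other members named were chosen after their values were seen. The members and lists were chosen with earlier results of these data known. Alternatives were RLE size factors, no filter, DESeq2 1.42.0, limma 3.58.1 on the deposited log2 values, a replicate block, Xist or the macrophage sum as covariate, and NZO libraries left out in turn. Fits without 17 libraries rich in other tissue transcripts, without Cast replicates 5 and 6, without 129 replicate 9 and without B6 replicate 6 were added after seeing the data.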

Additional observations from a re-analysis of the deposited data

Results flagged for a closer look

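In 24 of 152 groups of libraries, made of 1 strain and 1 measure each, the highest library stood far from the others of its strain. The rule flags about 1 in 20 by chance for normally distributed values, but gene levels entered as CPM without a log. The share that chance gives here is therefore not known. The measures share libraries and are not independent. Of the 24, 11 belong to 129 replicate 9. Its mean log2 CPM over the members was 2.78, against 1.46 to 1.89 in other 129 libraries. Its Mki67 level was 33.1 CPM against 5.80 to 11.6, its Top2a level 18.7 CPM against 5.26 to 7.26, and its Kif20a level 5.51 CPM against 2.03 to 2.36. Its Bub1b level was 4.48 CPM, Cenpe 4.50, Cenpf 5.03, Ccna2 8.16, Ccnb1 3.04, Birc5 2.27 and Tk1 4.98 CPM. The library held 1009 CPM of genital duct markers and a macrophage sum of 2273 CPM, the highest of its strain, and their part in these levels was not tested. The 129 replicate 6 library had the next highest sums of the strain, 904 CPM of genital duct markers and 1766 CPM of macrophage markers. Its mean log2 CPM over the members (1.89) and its Mki67 level (11.6 CPM) were also the next highest after replicate 9.

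NZO replicate 8 stood apart in Mki67 (135 CPM against 42.8 to 73.0), Top2a (70.8 CPM against 24.2 to 42.5) and Aurkb (14.5 CPM against 4.38 to 8.55), and it is the library rich in B cell and marrow markers. B6 replicate 6 stood apart in Pcna (64.3 CPM against 36.1 to 42.8), Mcm5 (15.8 CPM against 5.31 to 9.64) and Tk1 (9.77 CPM against 3.27 to 6.14). NOD replicate 6 stood apart in Mcm5 (11.9 CPM against 4.42 to 7.26).

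Cast replicate 5 stood apart in Pcna, at 87.6 CPM against 29.0 to 54.3, and it had the lowest adipocyte marker sum of its strain, 12349 CPM. It also had the highest macrophage and endothelial sums of its strain, 2686 and 2182 CPM. Cast replicate 6 had the next highest, 2187 and 1651 CPM. The part of these sums in the member levels was not tested. AJ replicate 1 stood apart in Mki67 (25.3 CPM against 8.21 to 15.2). WSB replicate 3 stood apart in Mki67 (20.1 CPM against 5.22 to 11.8) and Ccna2 (8.11 CPM against 2.21 to 4.73). PWK replicate 3 stood apart in Pcna (42.0 CPM against 32.7 to 36.9) and PWK replicate 1 in Tyms (8.55 CPM against 4.70 to 6.24).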

How the results depend on the processing

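All 32 members stayed higher in NZO under every alternative but the macrophage covariate, where 3 did (background 14.3%). Under that covariate the NZO median fell to 0.46 with Mcm4 at -0.15, the WSB median turned to 0.21 with 1 member lower, the wild-derived median was -0.22 with 8 lower, and the fewest members called in an NZO pair was 1. With limma on the variance-stabilised values, which compress low counts, the NZO median was 1.16 and the Cast median -0.69, with 6 members higher in B6 and 4 lower in 129. Over fits that each left out 1 library, members higher in B6 numbered 4 (without B6 replicate 6) to 14 (without 129 replicate 9) and members lower in 129 numbered 2 to 8, the most without 129 replicate 9. Without libraries rich in other tissue transcripts 4 were higher in B6. Members lower in 129 numbered 4 without Cast replicates 5 and 6 and 4 without the rich libraries. Without Cast replicates 5 and 6, Pcna and Mcm4 turned to -0.26 and -0.17 in Cast and Mcm7 moved to 0.17. Except where a construction named here shows it, the cause was not tested. Leaving out NZO libraries in turn gave a median of 1.71 to 1.85, with 28 to 30 members in the weakest pair. The labels do not say that replicate numbers pair libraries, and not every same-numbered pair from different strains correlated: 96 of 186 had r over 0.1 (median 0.108, lowest -0.444), against a median of -0.018 for different numbers. Xist levels followed the replicate number in 129, B6, NOD and NZO. In NZO they were 479 to 744 CPM in replicates 1 to 4 and 0.192 to 2.41 CPM in replicates 5 to 8. In AJ, PWK and WSB the split fell at other numbers. Cast had 398 to 618 CPM of Xist in replicates 1 to 3, 0.422 to 0.814 CPM in replicates 5 to 7 and 52.8 CPM in replicate 8. The part of Xist in these correlations was not tested. The mean log2 CPM over the members was 3.66 to 3.86 in NZO replicates 1 to 4, 3.04 to 3.52 in replicates 5 to 7 and 4.29 in replicate 8. The part of Xist in that spread within NZO was not tested either. The replicate block gave 32 members higher in NZO (median 1.80) and 24 lower in Cast, with Tk1 in Cast at -0.39 (adjusted p = 0.0581).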

Other observations

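Cdkn2a, which encodes the cell cycle inhibitor p16 and the p53 regulator p19ARF, moved with the cell division genes in both outlying strains; it was picked after its values were seen, since its mean level was under 1 CPM. It had 0.612, 3.03 and 5.82 CPM in NZO libraries (lowest, median and highest), and strain means elsewhere between 0.0511 CPM in Cast and 0.669 CPM in B6. The lowest NZO library lay below the highest libraries of B6 (1.37 CPM), PWK (0.887 CPM), AJ (0.775 CPM) and NOD (0.723 CPM). Its log2 fold change against the other 7 strains was 3.56 ± 0.30 in NZO and -3.21 ± 0.56 in Cast (adjusted p = 2.84e-15 and 2.92e-06, edgeR). Cast libraries, at 0.0199 to 0.112 CPM, lay near the floor, so the size of the Cast change is uncertain. WSB libraries were also low, at 0 to 0.247 CPM. Cdkn1c, which encodes the inhibitor p57 and was also picked after its values were seen, went the other way, with -0.83 ± 0.21 in NZO and 1.82 ± 0.18 in Cast.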
